A study of Sus scrofa with 8 samples.

Results

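The genes of the mitochondrial ribosomal proteins were examined in pig liver. Members were the probe sets whose array annotation gives a single gene symbol that begins MRPL, for the large subunit, or MRPS, for the small subunit, followed by a digit. The rule itself uses no measured value, but it was set with earlier results of these data known. Of the 24123 probe sets of the array, 77 met this rule, and they stand for 58 of the 6765 genes with a single symbol on the array, 36 named MRPL with 51 probe sets and 22 named MRPS with 26. A further 6 probe sets whose annotation lists several entries were left out. The liver came from 4 Korean native pigs (KNP), an indigenous breed, at 7 months of age, and from 4 Yorkshire pigs (YS), a commercial breed, at 6 months. Each of the 8 animals had 1 Affymetrix porcine array and was labelled as a biological replicate, and no treatment or genetic change is named in the labels. Breed and age cannot be told apart in this design. In bulk tissue, fewer cells of a type and less RNA per cell cannot be told apart either.

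Mitochondria keep a small genome that encodes a few core subunits of the respiratory chain and the ATP synthase, and they translate it on ribosomes of their own. The RNA of these ribosomes comes from the mitochondrial genome, while all of their proteins are encoded in the nucleus, made in the cytosol and imported. The large subunit joins amino acids into a chain and the small subunit reads the message. Part of the proteins have counterparts in bacterial ribosomes, and the others were added in the mitochondrial lineage. The hepatocyte is rich in mitochondria, and its urea synthesis, fatty acid oxidation and glucose production depend on them. The question put to the arrays was which of these genes had another level in KNP liver than in YS liver.

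All 9 hepatocyte markers were measured, with a summed intensity of 318650 to 393643 in KNP animals and of 543212 to 597794 in YS animals. Of these markers 7 were called lower in KNP (limma adjusted p under 0.05), beside 0.867% of all genes tested. The median log2 difference of the 9 markers was −0.69, or −0.059 after quantile normalization. CYP2E1 was at 555 in KNP replicate 2, which had the lowest sum, and at 32831 to 39858 in the other KNP animals. In the lists for other cell types 0 genes were called. Their summed intensities in KNP and YS were 9020 to 12574 and 5392 to 11056 for macrophages, 2554 to 3178 and 1880 to 3296 for endothelium, 3013 to 5695 and 2784 to 4574 for stellate cells, and 273 to 518 and 177 to 340 for bile duct. They were 568 to 1408 and 534 to 794 for T and NK cells, and 2167 to 4392 and 2126 to 4927 for red cells. The markers of B cells, skeletal muscle and exocrine pancreas on the array were all too dim to be tested (2.56 to 76.9 and 3.12 to 66.1, 43.7 to 92.7 and 80.2 to 273, 3.89 to 166 and 4.85 to 48.5). The signal at the 3' end of actin over that at its 5' end, a control for RNA quality and labelling, was 2.68 to 6.45 in KNP and 8.39 to 11.8 in YS (exact permutation p = 0.0286, two-sided, n = 4 per breed, the smallest that 35 splits allow). The highest intensity of an array was 50730 to 60066 in KNP and 83646 to 95919 in YS, where it was that of albumin, one of the hepatocyte markers. The hybridization controls, added in known amounts, had a geometric mean of 2747 to 4230 in KNP and 5167 to 7650.5 in YS. Neither overlapped (exact permutation p = 0.0286 for both). The part of these measures and of the hepatocyte markers in the results was not tested.

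No mitochondrial ribosomal protein differed between the breeds past the threshold. Each of the 58 genes had at least 1 probe set bright enough to be tested, 70 of the 77 in all, and the filter on dim values removed the other 7. With limma and Benjamini-Hochberg adjustment over all 14399 probe sets tested, 0 of the 70 were called higher or lower at an adjusted p under 0.05, against 1.03% of all probe sets tested, 0.424% higher and 0.611% lower in KNP. The smallest adjusted p among the 70 was 0.149. At an unadjusted p under 0.05 stood 10 of the 70, 8 higher and 2 lower in KNP, where the background over all probe sets tested was 15.1%, 7.07% higher and 8.06% lower. No overlap between the breeds was seen in 4 of the 70, 3 higher and 1 lower, where the background was 9.68%, 4.01% higher and 5.67% lower. At an unadjusted p under 0.05 the members' share in either direction, 14.29%, was close to the background. Among differences above 0 alone it was above its background, and among differences below 0 alone it was below its background. Among other probe sets in the members' range of brightness the share in either direction was 13.98%. No overlap was seen in 5.71% of the members in either direction, against 8.59% of these other probe sets. Whether these shares differ was not tested.

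Each gene is described from here on by its probe set with the highest mean. Over the 58 genes the difference, KNP minus YS in log2(intensity + 16), had a median of 0.068, against −0.016 over all 5423 genes tested, and it ran from −0.45 to 0.71. The difference was above 0 in 36 genes and below 0 in 22, where 48.2% of all genes tested lay above 0. With the median of each array set equal it was above 0 in 44 and below in 14. That setting raised the difference of every probe set alike and moved the median of all probe sets from −0.0086 to 0.067. Of the 58 genes 0 were called, against 1.36% of all genes tested (0.498% higher, 0.867% lower), and 9 had an unadjusted p under 0.05, 7 higher and 2 lower, against 16.3% (7.45% higher, 8.89% lower). All 4 KNP values lay above all 4 YS values in 3 genes and below them in 1, together 6.90% of the 58, where 11.0% of all genes tested showed no overlap in either direction (4.50% higher, 6.47% lower). The difference was under 0.5 in size, which is 1.41-fold, in 54 of the 58. The 95% interval of the difference lay within 2-fold in either direction in 53 genes, or 91.4%, against 79.3% of all genes tested. The 5 genes whose interval reached beyond 2-fold were MRPL14, MRPL4, MRPS5, MRPS26 and MRPS23. A p that misses the threshold does not show that the breeds are alike.

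**Figure D1:**
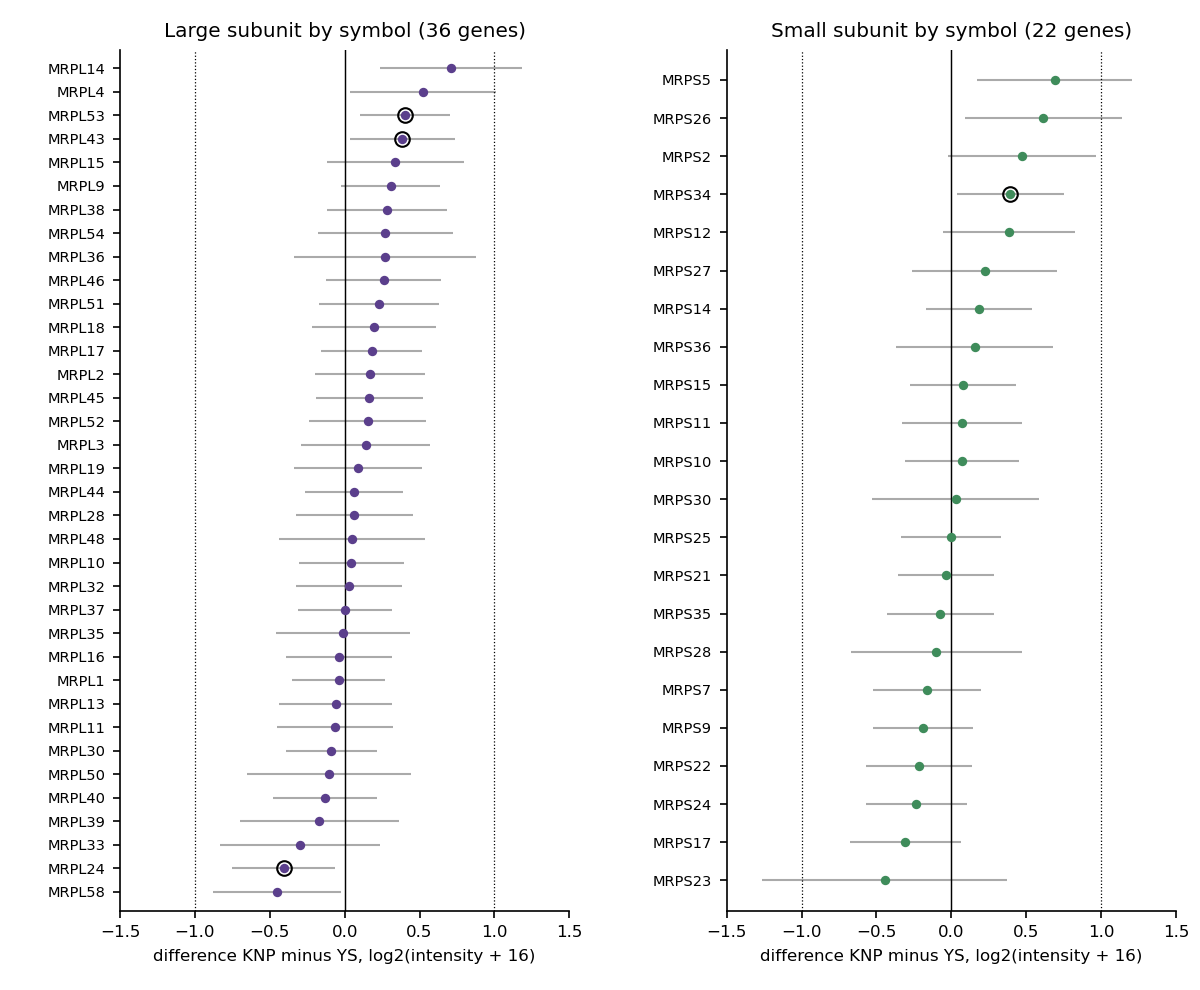
Difference between the breeds for each of the 58 genes, as KNP minus YS in log2(intensity + 16), with the 95% interval from limma as a grey bar (n = 4 per breed). Genes of the large subunit are on the left and of the small subunit on the right, by symbol; rings mark the 4 genes without overlap between the breeds, and dotted lines mark a 2-fold difference.

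MRPL14 had the largest difference of the large subunit. Its protein lies on the face of the large subunit that meets the small one, where the factor MALSU1 binds during assembly. The intensity was 1319, 1377, 1643 and 977 in the KNP animals and 769, 1020, 876 and 575 in the YS animals. Only KNP replicate 4 fell within the YS range, below YS replicate 2. The means were 1329 ± 274 and 809.8 ± 187 (SD, n = 4 per breed; log2 difference 0.71, SE 0.21, limma adjusted p = 0.149).

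MRPL53 and MRPL43, both proteins without a bacterial counterpart, did not overlap between the breeds. MRPL53 lay at 1775, 1747, 1535 and 1516 in KNP and at 1263, 1275, 1247 and 1168 in YS, with the narrowest spread within breeds of all 58 genes (SD 0.093 on the log2 scale). Its difference was 0.40 (SE 0.14, limma adjusted p = 0.198). MRPL43 lay at 1234, 1080, 1417 and 1069 in KNP and at 958, 1019, 792 and 883 in YS (log2 difference 0.39, SE 0.16, limma adjusted p = 0.286). Its second probe set, dimmer, showed 0.30. Neither gene passed the threshold.

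MRPL4, whose protein lines the tunnel through which the new chain leaves the ribosome, was at 993, 900, 880 and 765 in KNP and at 449, 850, 753 and 473 in YS. YS replicates 1 and 4 were low, and YS replicate 2 lay within the KNP range. The log2 difference was 0.52 (SE 0.22, limma adjusted p = 0.295).

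**Figure D2:**
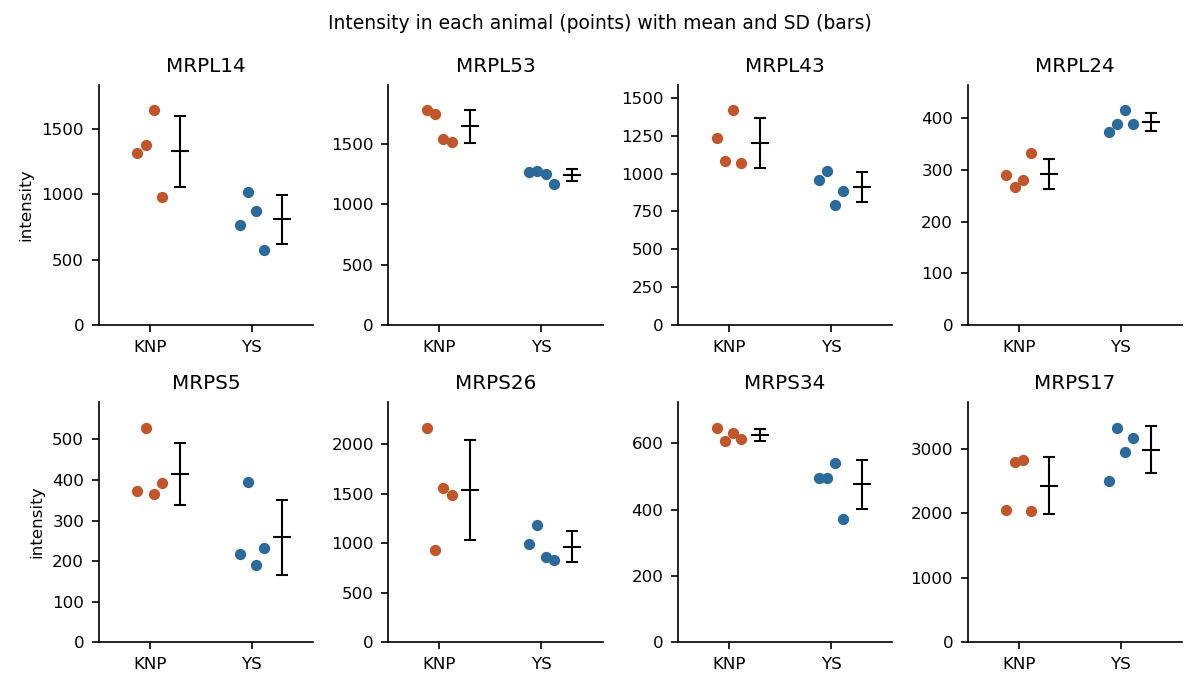
Intensity of 8 mitochondrial ribosomal protein genes in each animal, KNP in orange and YS in blue, on axes that start at 0; the bar beside each group is the mean with the SD over 4 animals. MRPL53, MRPL43 and MRPS34 lie higher in each KNP animal than in any YS animal, MRPL24 lies lower, and MRPL14, MRPS5, MRPS26 and MRPS17 overlap between the breeds.

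In the other direction MRPL24, a protein near the exit of the tunnel, lay at 290, 266, 280 and 333 in KNP and at 373, 389, 415 and 389 in YS. It was the only gene of the family whose KNP values all lay below the YS values. Its log2 difference was −0.41 (SE 0.16, limma adjusted p = 0.252). MRPL58, a hydrolase of the ribosome that frees stalled chains from their transfer RNA, was at 667, 756, 817 and 550 in KNP and at 935, 1181, 1022 and 718 in YS. It had the lowest difference of the family, −0.45 (SE 0.19, limma adjusted p = 0.306), and KNP replicates 2 and 3 reached above YS replicate 4. MRPL11, part of the base of the stalk to which elongation factors bind, was at 941.3 ± 150 in KNP and 986.1 ± 151 in YS (SD, n = 4 per breed), a log2 difference of −0.066 (95% interval −0.45 to 0.32).

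The remaining genes of the large subunit lay between. MRPL15, MRPL9, MRPL38, MRPL54, MRPL36, MRPL46 and MRPL51 had differences from 0.23 for MRPL51 to 0.34 for MRPL15, with overlap between the breeds in each. MRPL3, which reaches into the centre that forms the peptide bond, was at 1769, 1958, 1980 and 1101 in KNP and at 1371, 1537, 1547 and 1559 in YS. There KNP replicate 4 was the lowest of all 8 animals, and the other 3 KNP animals the highest. MRPL45, which holds the ribosome to the inner membrane, showed 0.16 (95% interval −0.19 to 0.52). MRPL44, which resembles an RNA-cutting enzyme, showed 0.065 (95% interval −0.26 to 0.39).

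In the small subunit MRPS5 had the largest difference. Its counterpart in bacteria helps to keep decoding accurate. The intensity was 373, 529, 366 and 393 in KNP and 217, 395, 191 and 232 in YS. YS replicate 2 lay within the KNP range and the other 3 YS animals below it. The log2 difference was 0.69 (SE 0.24, limma adjusted p = 0.199).

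MRPS26, a mitochondrial addition, was at 2170, 937, 1563 and 1488 in KNP and at 996, 1185, 859 and 833 in YS. KNP replicate 2 lay among the YS animals and the other 3 KNP animals above them. The log2 difference was 0.61 (SE 0.24, limma adjusted p = 0.256), and with 1 animal left out it ran from 0.43 without KNP replicate 1 (limma adjusted p = 0.441) to 0.83 without KNP replicate 2 (limma adjusted p = 0.0731). MRPS34, needed for a stable small subunit, was at 647, 608, 629 and 614 in KNP and at 496, 496, 541 and 371 in YS, without overlap (log2 difference 0.39, SE 0.16, limma adjusted p = 0.287). MRPS2 was at 692, 721, 931 and 959 in KNP and at 515, 763, 403 and 732 in YS (log2 difference 0.47, SE 0.22, limma adjusted p = 0.352). The values of MRPS2 overlapped, since YS replicates 2 and 4 lay above KNP replicates 1 and 2. Without YS replicate 3 the difference of MRPS2 was 0.30 (limma adjusted p = 0.596). MRPS12, which sits at the decoding centre, showed 0.38 (SE 0.20, limma adjusted p = 0.398), with overlap, and 0.25 without YS replicate 2.

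No lower difference of the small subunit passed the threshold. MRPS23, a mitochondrial addition with the widest spread within breeds of the 58 genes, was at 175, 76.4, 229 and 117 in KNP and at 102, 180, 281 and 272 in YS, a log2 difference of −0.45 with a 95% interval from −1.26 to 0.37. With 1 animal left out, MRPS23 ran from −0.20 without KNP replicate 2 to −0.72 without YS replicate 1. MRPS17 was at 2051, 2791, 2824 and 2037 in KNP and at 2500, 3331, 2948 and 3173 in YS (log2 difference −0.31, SE 0.17, limma adjusted p = 0.421). In MRPS17 the KNP animals formed a high and a low pair, and the high pair lay within the YS range. MRPS24, MRPS22 and MRPS9 showed −0.23, −0.22 and −0.19, with an SE of 0.15, 0.16 and 0.15. None of these genes was without overlap.

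MRPS30 is named for the small subunit, while its protein is known to sit in the large one. It was at 332, 234, 572 and 388 in KNP and at 395, 276, 365 and 401 in YS, and KNP held both the highest and the lowest value. The log2 difference was 0.028 (95% interval −0.53 to 0.59). MRPS36 carries the family name but is now known as a part of the oxoglutarate dehydrogenase complex of the citric acid cycle. It showed 0.16 (SE 0.24, limma adjusted p = 0.800).

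The large and small subunit were described side by side. The median difference was 0.077 over the 36 genes of the large subunit and 0.049 over the 22 of the small subunit, and both had 0 called members. The difference was above 0 in 24 of 36 genes of the large subunit and in 12 of 22 of the small subunit. With equal array medians, which raised every difference alike, these counts were 29 and 15. With MRPS30 counted to the large subunit and MRPS36 left out, the medians were 0.065 over 37 genes and 0.034 over 20. The distance between the subunits was not tested, and its size depended on single animals. With each animal left out in turn, the median of the large subunit stayed above that of the small. Without KNP replicate 4 the medians were 0.172 for the large and 0.061 for the small subunit, and without YS replicate 2 they were 0.152 and 0.039. The 34 genes with a bacterial counterpart had a median of 0.067 and the 23 mitochondrial additions of 0.065. No overlap between the breeds was seen in 1 of the former, MRPL24, and in 3 of the latter, MRPL43, MRPL53 and MRPS34. These are 2.94% and 13.0%, beside 11.0% of all genes tested.

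Members were then set beside other probe sets of equal brightness. The mean of a member probe set over the 8 arrays ran from 7.04 to 11.4 on the log2 scale, and 62 of the 70 lay from 8 to 11. In the bin from 8 to 9 the median difference was 0.14 for 18 member probe sets and 0.017 for the 3561 others. In the bin from 9 to 10 it was 0.050 for 23 members and 0.026 for 2671 others, and from 10 to 11 it was 0.16 for 21 members and 0.033 for 1616 others. The members lay a little above the others in these bins and below them from 11 to 12, where 4 members had a median of −0.10 and 866 others of −0.0024. After quantile normalization the medians of the members were 0.12, 0.0069 and 0.11 in the bins from 8, 9 and 10. Those of the others were 0.0054, −0.014 and −0.013.

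**Figure D3:**
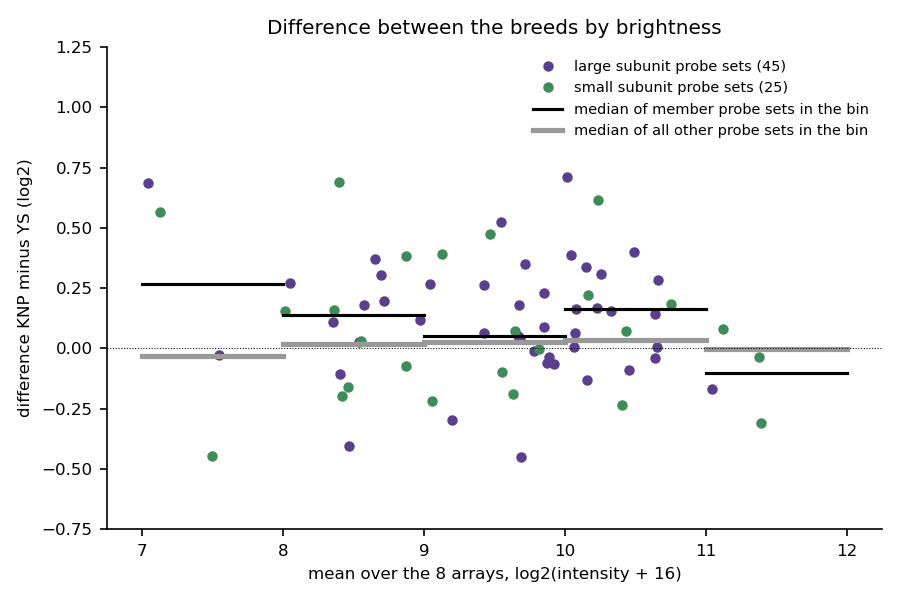
Difference between the breeds (KNP minus YS, log2) against the mean log2(intensity + 16) over the 8 arrays for the 70 tested member probe sets, by subunit. Black lines are the median of the members and grey lines the median of all other probe sets in bins 1 log2 unit wide; the members scatter on both sides of 0 in each bin, and the black lines lie above the grey ones in the bins from 7 to 11 and below in the last.

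The spread between animals of one breed was described in the same bins, with no test. The median SD within breeds was 0.28 for members and 0.32 for others in the bin from 8 to 9. It was 0.23 against 0.27 from 9 to 10 and 0.19 against 0.26 from 10 to 11 on the log2 scale. In the dimmest bin, from 7 to 8, it was 0.39 for both. Among the named genes the spread ran from 0.093 for MRPL53 to 0.62 for MRPS23.

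Animals differed in the level of the family as a whole. For each gene the deviation of an animal from the mean over the 8 animals was taken, and the median over the 58 genes was 0.035, 0.11, 0.14 and −0.086 in KNP replicates 1 to 4 and −0.12, 0.055, −0.0012 and −0.082 in YS replicates 1 to 4. The animals of both breeds thus reached above and below 0. KNP replicate 4 was the lowest of the KNP animals in 34 of the 58 genes (58.6%), against 24.1% of all genes tested. The share was 27 of 36 (75%) for the large subunit and 7 of 22 (31.8%) for the small subunit.

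KNP replicate 4 was also the lowest KNP animal in 36 of 58 nuclear genes of the respiratory chain and ATP synthase (62.1%), and in 4 of 61 cytosolic ribosomal proteins (6.56%). Among other probe sets in the members' brightness bins it was the lowest KNP animal in 19.9% and the highest in 32.1%. On its array the GAPDH 3' to 5' ratio was 3.77, the highest of the KNP arrays, and the actin ratio was 6.37, where KNP replicate 3 had 6.45. Its array median of 170 and its hybridization controls of 4230 were also the highest of the KNP arrays. The part of these measures in the low values was not tested. Without KNP replicate 4 the median difference of the family was 0.157 in place of 0.068, and that of the large subunit 0.172 in place of 0.077. Without KNP replicate 3 the median of the small subunit was −0.022.

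**Figure D4:**
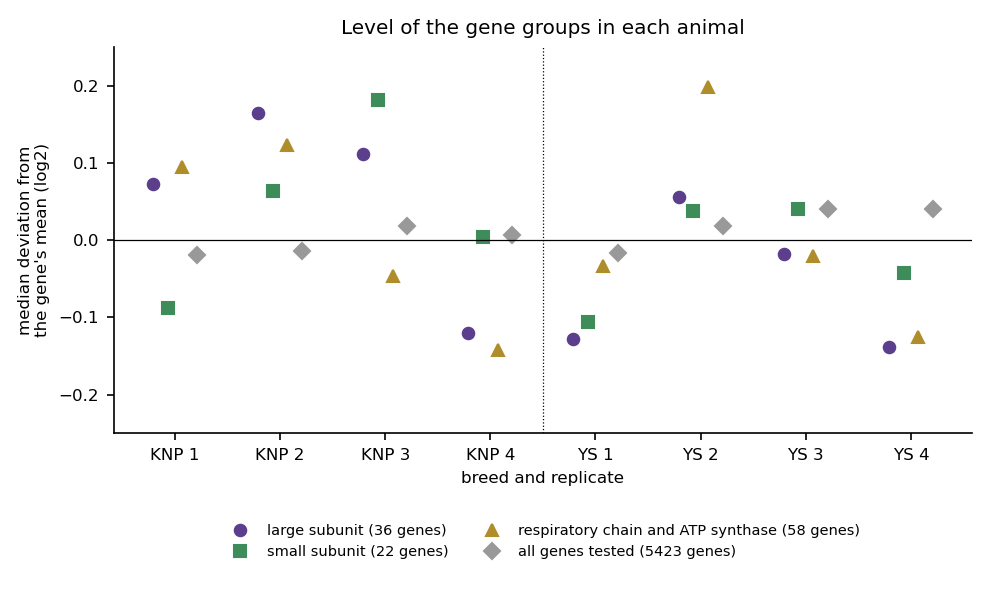
Median deviation of each animal from the mean of a gene over the 8 animals (log2), for the large subunit, the small subunit, nuclear genes of the respiratory chain and ATP synthase, and all genes tested. The large subunit lies at −0.12 in KNP replicate 4 and at −0.13 and −0.14 in YS replicates 1 and 4, and above 0.05 in KNP replicates 1 to 3 and YS replicate 2; all genes tested stay within 0.05 of 0.

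How the genes varied together over animals is given as a description over the 8 arrays, with each breed centred on its mean. The median correlation between a pair of genes was 0.25 over 630 pairs of the large subunit and 0.059 over 231 pairs of the small subunit. It was 0.12 for pairs of one gene from each, 0.17 for all pairs of the family and 0.0054 for all genes tested. In the groups closest in function it was higher, 0.33 for cytosolic ribosomal proteins and 0.37 for the respiratory chain and ATP synthase. Their probe sets were also brighter, with a median log2 mean of 14.2 and 11.7 against 9.83 for the family. Their median SD within breeds was smaller, 0.14 and 0.20 against 0.22. KNP replicate 4 was the lowest KNP animal in 75% of the large subunit genes and in 31.8% of the small. The part of brightness, spread and this animal in the correlations was not tested. All pairs share the same 8 arrays and their scaling. MRPL19, MRPL51, MRPL58 and MRPL30 followed the median of the other members most closely, with a correlation from 0.86 to 0.89. MRPS24, MRPL24 and MRPL32 ran against it, with −0.70, −0.63 and −0.56. Thus MRPL58 and MRPL24, the genes with the lowest differences of the large subunit, stood at opposite ends in how they followed the other members within breeds.

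Of the 58 genes 12 had a second tested probe set, and in 11 of the 12 both gave a difference of the same sign. MRPS2 showed 0.47 with the brighter and 0.56 with the dimmer one, MRPS9 −0.19 and −0.20, and MRPL18 0.20 and 0.37. In MRPS12 the values were 0.38 and 0.16, and in MRPL2 they were 0.17 and 0.0067. MRPL52 showed 0.15 with its brighter probe set and 0.69 with a dimmer one near the filter. The exception in sign was MRPL33. Its brighter probe set was at 488, 772, 582 and 317 in KNP and at 617, 750, 579 and 609 in YS (log2 difference −0.30, SE 0.24). The dimmer one was at 308, 301, 393 and 621 in KNP and at 449, 280, 390 and 276 in YS (log2 difference 0.18, SE 0.26). KNP replicate 4 held the lowest value of the first and the highest of the second. Without it the differences were −0.073 and −0.038, of the same sign. The correlation of the pair over the 8 arrays was −0.76 and was −0.20 over the 6 arrays left without KNP replicates 2 and 4, the farthest from the median, so it rested on these animals. Over the 12 pairs of probe sets the correlation had a median of 0.38, and that of MRPL32 was also below 0, at −0.35.

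**Figure D5:**
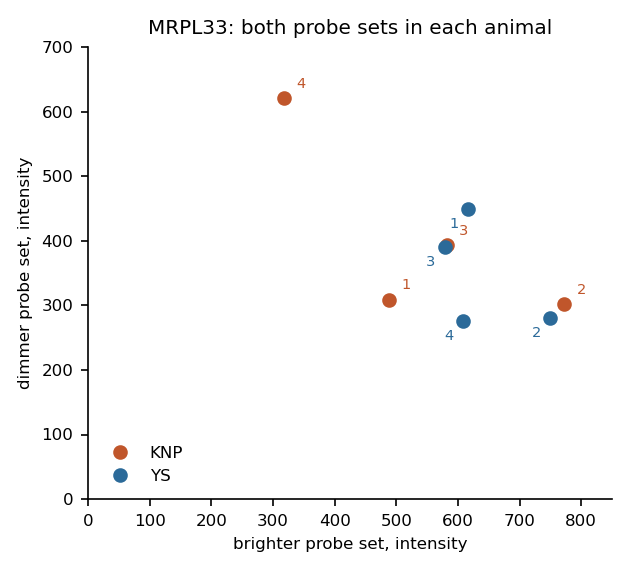
Intensity of the 2 tested probe sets of MRPL33 in each animal, the brighter on the horizontal and the dimmer on the vertical axis, with the replicate number beside each point. KNP replicate 4 lies apart at 317 and 621, and the other 7 animals lie between 488 and 772 on the horizontal axis and between 276 and 449 on the vertical one.

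The 7 probe sets below the filter belong to MRPL3, MRPL15, MRPL35, MRPL38, MRPL46, MRPL52 and MRPS12, genes that each have a brighter probe set among those tested. Their intensity ran from 2.54 to 179, and they were not tested.

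Genes that work with the mitochondrial ribosome were taken from lists. The lists count symbols, and some hold an older and a newer symbol of the same gene. In a list of 8 symbols, ribosomal proteins under other names and the insertion factor OXA1L, 5 were found on the array and tested. Their median difference was −0.13, with 0 called in either direction and 0 without overlap. No overlap was seen in 11.0% of all genes tested. DAP3, a protein of the small subunit that binds GTP, was at 964, 904, 711 and 739 in KNP and at 770, 928, 1041 and 894 in YS (log2 difference −0.13, SE 0.17). GADD45GIP1, a protein of the large subunit, was at 227, 301, 219 and 195 in KNP and at 156, 241, 86.8 and 92.1 in YS (log2 difference 0.74, SE 0.31, limma adjusted p = 0.287). The KNP and YS values of both overlapped. OXA1L, which inserts the new chains into the inner membrane, showed −0.076.

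Of 14 symbols listed for translation factors 7 were tested, with a median of 0.025 and 0 called. Without overlap was 1 of the 7, beside 11.0% of all genes tested. TSFM, the exchange factor that recharges the elongation factor TUFM, was at 1123, 1213, 1070 and 807 in KNP and at 1485, 1404, 1391 and 1298 in YS, without overlap (log2 difference −0.41, SE 0.16, limma adjusted p = 0.260). TUFM, which brings the loaded transfer RNA to the ribosome, was at 1822, 2180, 1828 and 977 in KNP and at 1581, 1916, 1388 and 1517 in YS. The log2 difference of TUFM was 0.039 (SE 0.23), and KNP replicate 4 was again the lowest animal.

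Assembly and ribosomal RNA factors had 13 of 21 genes tested, a median of 0.014 and 0 called. Without overlap was 1 of the 13, beside 11.0% of all genes tested. FASTKD2, which binds the ribosomal RNA of the large subunit, was lower in each KNP animal than in any YS animal, at 584.4 ± 94.4 against 842.7 ± 166 (SD, n = 4 per breed; log2 difference −0.51, SE 0.19, limma adjusted p = 0.231). MALSU1, the partner of MRPL14 named above, showed 0.066 (SE 0.14).

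Of 24 symbols listed for the loading of transfer RNA in mitochondria 9 were tested, with a median of −0.019 and 0 called. Without overlap was 1 of the 9, beside 11.0% of all genes tested. GATC, a subunit of the enzyme that makes glutaminyl transfer RNA, was at 928, 926, 927 and 807 in KNP and at 612, 636, 694 and 575 in YS, without overlap (log2 difference 0.50, SE 0.15, limma adjusted p = 0.134). GARS, which loads glycine in both the cytosol and mitochondria, showed −0.51 (SE 0.18, limma adjusted p = 0.221).

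Of genes for mitochondrial transcription, RNA processing and the genome 9 of 15 were tested, with a median of −0.055 and 0 called. Without overlap was 1 of the 9, beside 11.0% of all genes tested. ELAC2, which cuts the ends of transfer RNA, was lower in each KNP animal than in any YS animal, at 361.8 ± 40.3 against 593.6 ± 132 (SD, n = 4 per breed; log2 difference −0.67, SE 0.19, limma adjusted p = 0.135). TFAM, which packs the mitochondrial genome and takes part in its transcription, showed −0.18 (SE 0.14, limma adjusted p = 0.589). Of the nuclear regulators 4 of 9 were tested, with a median of 0.14, 0 called and 0 without overlap. PPARGC1A, a coactivator that drives the making of mitochondria, varied widely within KNP, at 1602, 217, 389 and 736, against 1056, 639, 619 and 657 in YS (log2 difference −0.35, SE 0.48).

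The cytosolic ribosomal proteins and the nuclear genes of the respiratory chain are the closest groups in function. The median difference was −0.35 over 61 tested genes of the cytosolic ribosome, with 11 called lower, beside 0.867% of all genes tested, and −0.030 over 58 of the respiratory chain and ATP synthase, with 0 called. After quantile normalization these medians were −0.066 and −0.0013, and that of the mitochondrial ribosomal proteins was 0.015. No overlap was seen in 38 of the 61 cytosolic genes, in 1 of the 58 of the respiratory chain and in 4 of the 58 mitochondrial ribosomal proteins, beside 11.0% of all genes tested. The probe sets of the cytosolic genes lie in another range of the array, with a median log2 mean of 14.2, where that of the mitochondrial ones was 9.83. The difference between these groups was not tested.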

How the data were processed

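Liver RNA of 4 KNP and 4 YS animals was measured with 1 array each. The authors deposited 1 linear intensity for each probe set, made with GCOS 1.3 per the submitters' processing notes. Between percentiles 2 and 98 every array had a mean of 499.8, so each array carries a scaling of its own. The signal algorithm is not given in the sources used here. Controls (124 probe sets) were left out. The deposited intensity was taken as log2(intensity + 16), array medians differed by 0.218 on this scale, and the 40% of 23999 probe sets with the lowest mean were left out. Breeds were compared with limma 3.58.1 in R 4.3.3 (lmFit, eBayes with a trend, two-sided, no other term), adjusted by Benjamini-Hochberg over 14399 probe sets. The p-values, SEs and intervals rest on the spread between these animals, which limma draws towards that of other probe sets of like brightness. The SE of a gene is thus not that of its own values alone. The fit was run on simulated data as a check of the code. How often it finds differences as small as those of the members is not given here.

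Names come from the array annotation, and all 58 symbols were found in the gene table of Sscrofa11.1. Named by rule were genes without overlap, the 8 largest differences in each direction, the 6 smallest p, genes whose probe sets differ in sign, and MRPL11, MRPS12 and MRPS30. From the other lists these were PPARGC1A, TFAM, DAP3 and TUFM, and up to 4 a list with the smallest p. The other genes named, such as MRPL3, MRPL15, MRPL44, MRPL45, MRPS36, MALSU1 and OXA1L, were chosen after their values were seen. Members, lists and rule were chosen with earlier results of these data known. Animals of the same number in both breeds did not deviate together (correlations from −0.020 to 0.051) and were not paired.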

Additional observations from a re-analysis of the deposited data

Results flagged for a closer look

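In 59 probe sets (the brightest of each of the 58 genes and the dimmer one of MRPL33) each breed was searched for an animal that stands apart by Dixon's test at the 95% level. Such an animal was found in 3 of 118 groups of 4 animals, and chance gives about 1 in 20. MRPL16 was at 746.1 in KNP replicate 4, against 972.9 to 1002 in the other KNP animals. MRPL3 was at 1371 in YS replicate 1, against 1537 to 1559 in the other YS animals. MRPL52 was at 1764 in KNP replicate 3, against 1209 to 1237 in the other KNP animals.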

How the results depend on the processing

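The count of 0 called members of the family did not change under any of 16 alternatives, with a smallest adjusted p between 0.0731 and 0.269. Over the same alternatives the median difference of the family ranged from 0.015 after quantile normalization to 0.157 without KNP replicate 4. Each animal left out in turn gave 0.022 to 0.157 for the family, 0.050 to 0.172 for the large subunit and −0.022 to 0.063 for the small subunit. Median centring of each array, which moved the median of all probe sets from −0.0086 to 0.067, gave 0.143 for the family, with 44 genes higher and 14 lower in KNP in place of 36 and 22. Among all probe sets tested, the 149 called became 14 after quantile normalization, 95 after median centring, 35 without a filter and 8 with the replicate block, where the smallest adjusted p of a member was 0.146, and 8 to 119 with 1 animal left out. The paired fit with this replicate block changed no call of a member. The sign changed for MRPL11 (0.010 after median centring, and −0.16 to 0.010 with 1 animal left out), for the dimmer probe set of MRPL33 (−0.038 to 0.31 with 1 animal left out) and for MRPS30 (−0.18 to 0.23 with 1 animal left out). The cause was not tested. The number of arrays, and for dim probe sets the signal over background, limits what could be seen.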
